A study of Homo sapiens with 16 samples.

Results

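The human mitochondrial genome is a small circular DNA that codes for subunits of the respiratory chain, the RNAs of the mitochondrial ribosome and a set of transfer RNAs. Both strands are copied into long precursors, and enzymes cut out the transfer RNAs that lie between most of the other genes, which frees the messages and ribosomal RNAs on either side. The proteins made from these messages sit in complex I (NADH dehydrogenase), complex III (cytochrome bc1), complex IV (cytochrome c oxidase) and complex V (ATP synthase), where they join nuclear-encoded subunits. The RNAs described here were all rows of the curcumin table whose gene name begins with MT-, which were 37 of its 60560 genes: 13 messages, 2 ribosomal RNAs and 22 transfer RNAs.

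SW480 and HCT116 are established human colorectal cancer (CRC) cell lines. SW480 curcumin and HCT116 curcumin cells had been exposed for 16 h to curcumin, and each line had its own non-treated control. By the paper's methods the curcumin was a turmeric extract, mostly curcuminoids with some essential oils. No concentration is given in the labels, and the controls are described as non-treated, with no mention of vehicle. The paper gives a lower curcumin concentration for HCT116 than for SW480, so differences in response between the lines cannot be told apart from dose. It dissolved curcumin in dimethyl sulfoxide, and whether the controls received this solvent is not stated. Each of the 4 groups had 2 libraries made from total RNA, and since nothing says that these came from separate cultures, the p-values measure only the spread between these libraries.

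Levels are given as FPKM, the number of sequenced fragments per kilobase of gene, scaled to the depth of the library, so that genes of unequal length can be set side by side. Depths recovered from the spacing of low values were 9.40 M and 23.11 M reads in SW480 curcumin, 15.67 M and 21.74 M in SW480 control, 21.64 M and 10.36 M in HCT116 curcumin, and 20.77 M and 17.77 M in HCT116 control. The shallowest libraries were thus a curcumin library in each line. Epithelial markers were present in every library, with EPCAM at 127 to 204 FPKM and KRT19 at 216 to 393 FPKM. The intestinal markers were mixed. CDX2 was present in every library, at 3.13 to 15.1 FPKM. VIL1, LGALS4 and CDX1 reached at most 0.0741, 0.217 and 0.0244 FPKM, and KRT20 was listed at 0 in all 8 libraries. Immune and stromal markers stayed near 0: CD3D and LUM were at 0 in all 8 libraries, and the highest value of any in these lists was 3.73 FPKM for COL1A1.

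All 37 genes matched a RefSeq gene of GRCh38.p14, in the same order along the chromosome. There, 14 of the 15 messages and ribosomal RNAs have a transfer RNA gene directly beside them, and 5 neighbouring pairs overlap, the longest overlap being the 46 bases that MT-ATP8 and MT-ATP6 share. The messages ranged between 2825 and 17298 FPKM and the ribosomal RNAs between 4900.5 and 21341 FPKM, whereas no transfer RNA exceeded 1197 FPKM. A transfer RNA value rests on few reads. The transfer RNAs together received 1963 to 4485 reads a library, against 846281 to 2135120 reads for the messages.

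First, the part of each library that came from mitochondrial DNA was examined. In SW480 curcumin the 37 genes held 40.4% and 39.4% of the summed FPKM, against 35.8% and 39.1% in SW480 control. Both curcumin libraries were above both control libraries, and most of the gap came from SW480 control replicate 1, the lowest of the 8. In HCT116 curcumin the share was 39.5% and 40.2%, against 41.8% and 40.5% in HCT116 control. Here both curcumin libraries were below both controls in summed FPKM. The difference of means was 2.44 percentage points in SW480 and -1.33 percentage points in HCT116 (exact two-sided permutation test, p = 0.333 in each line, the smallest p that 2 libraries against 2 allow).

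Over both lines the mean difference was 0.556 percentage points (exact permutation test within lines, p = 0.778, smallest possible p = 0.0556). Without SW480 control replicate 1 it was -0.272 percentage points. A larger share may come from more mitochondrial RNA or from less of the other RNA, and these cannot be told apart in such libraries, nor can fewer cells of a type be told from less RNA per cell. As the fraction of all reads, with each FPKM multiplied by the gene's length, the 37 genes made up 12.4% ± 0.199 in SW480 curcumin and 10.9% ± 1.02 in SW480 control, and 12.7% ± 0.724 in HCT116 curcumin and 12.9% ± 0.0122 in HCT116 control (SD, n = 2 each). By reads, the HCT116 curcumin libraries, at 12.2% and 13.2%, enclosed both controls, at 12.89% and 12.91%. The HCT116 difference was then -0.168 percentage points.

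**Figure D1:**
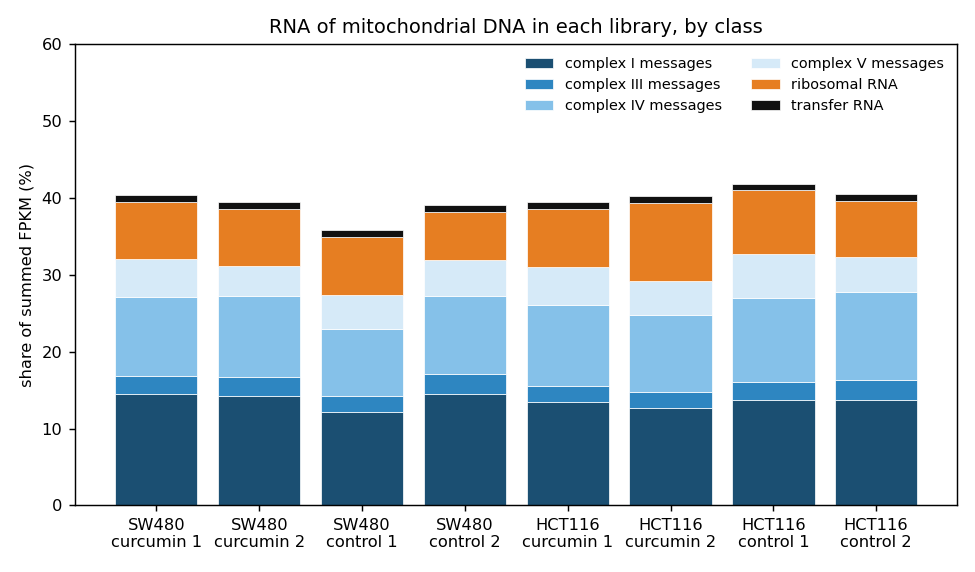
Share of the summed FPKM of each library (y axis, %) held by the RNAs of mitochondrial DNA, split by class; each bar is 1 library. Complex I messages form the largest block in every library, and totals lie between 35.8% and 41.8%.

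By class, messages made up 31.6% ± 0.619 of the summed FPKM in SW480 curcumin and 29.7% ± 3.22 in SW480 control, and 30.1% ± 1.26 in HCT116 curcumin and 32.5% ± 0.283 in HCT116 control (SD, n = 2 each). Ribosomal RNAs held 7.36% ± 0.00778 in SW480 curcumin and 6.87% ± 0.986 in SW480 control, and 8.84% ± 1.79 in HCT116 curcumin and 7.77% ± 0.736 in HCT116 control. The transfer RNAs together held only 0.811% to 0.985% of the summed FPKM of any library, and 0.0168% to 0.0209% of its reads. None of these class shares could reach an exact permutation p below 0.333 within a line. Curcumin and control libraries overlapped for the messages in SW480, and for the ribosomal RNAs and the transfer RNAs in both lines.

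Among the complexes, the 7 complex I messages (MT-ND1 to MT-ND6 and MT-ND4L) held 14.4% ± 0.112 of the summed FPKM in SW480 curcumin and 13.3% ± 1.68 in SW480 control, and 13.04% ± 0.516 in HCT116 curcumin and 13.7% ± 0.0255 in HCT116 control. The 3 complex IV messages, which encode the catalytic core of cytochrome c oxidase, held 10.3% ± 0.201 in SW480 curcumin and 9.39% ± 0.985 in SW480 control, and 10.3% ± 0.324 in HCT116 curcumin and 11.2% ± 0.442 in HCT116 control. Shares of the complex V messages were 4.50% ± 0.722 in SW480 curcumin and 4.61% ± 0.229 in SW480 control, and 4.75% ± 0.373 in HCT116 curcumin and 5.16% ± 0.891 in HCT116 control. Complex III, with the single message MT-CYB, held 2.40% ± 0.0141 in SW480 curcumin and 2.38% ± 0.333 in SW480 control, and 2.06% ± 0.0497 in HCT116 curcumin and 2.48% ± 0.141 in HCT116 control. In SW480 the gap between curcumin and control was smaller than the control SD for all 4 complexes. In HCT116 it was larger than either SD for complexes I, III and IV, and smaller than the control SD for complex V. The shares of the complexes were not tested, and each SD rests on 2 libraries. As parts of the same total, these shares are not independent of each other.

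Next, single genes were compared with limma over the 16341 genes that reached 1 FPKM in at least 2 libraries. All 13 messages, both ribosomal RNAs and 17 of the 22 transfer RNAs were among them, 32 in all. In SW480, 0 of the 32 passed an adjusted p of 0.05, against 0.306% of all genes tested, and 5 had an unadjusted p under 0.05, against 12.2% of all genes. In HCT116, 0 of the 32 passed the adjusted threshold, against 0.171% of all genes, and 2 had an unadjusted p under 0.05, against 11.8%. By the threshold that the study's methods name, an unadjusted p under 0.05 with a log2 fold change beyond 0.5, there were 3 in SW480 (MT-TG, MT-TS2 and MT-TT, against 1.95% of all genes) and 1 in HCT116 (MT-TI, against 1.85%), all of them lower with curcumin. In the mean of both lines 3 met it (MT-TG, MT-TS2 and MT-TT, against 1.05%). Without SW480 curcumin replicate 2 the SW480 count was 1, without any 1 library the HCT116 count was between 0 and 4, and without HCT116 control replicate 1 the count in the mean was 5. Every gene of the 32 with an unadjusted p under 0.05 in either line was a transfer RNA.

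The messages had small log2 fold changes, and none passed the test. In SW480, 11 of 13 messages had a log2 fold change above 0, with a median of 0.12 against a median of -0.02 over all genes tested. Without SW480 control replicate 1, 7 of 13 were above 0 and 6 below, with a median of 0.01. In HCT116, 11 of 13 were below 0, with a median of -0.07 against -0.005 over all genes. There, 10 or 11 were below 0 whichever library was left out, and 8 when libraries were scaled to one median. The signs of both medians stayed the same when libraries were scaled to one median (0.16 in SW480 and -0.04 in HCT116) or to one sum outside mitochondrial DNA (0.12 and -0.12). The difference between the lines, tested as an interaction, had a median of 0.27 over the messages and passed an unadjusted p of 0.05 for 0 of 13 messages and an adjusted p of 0.05 for no gene of the table, whereas 8.21% of all genes had an unadjusted p under 0.05. A message's 95% interval had a median half-width of 0.45 on the log2 scale, so shifts of this size were not detectable with 2 libraries a group.

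In complex I, MT-ND1 and MT-ND2 are the first messages after the ribosomal RNAs. MT-ND1 had 5631 and 6085 FPKM in SW480 curcumin, against 4438 and 5613 FPKM in SW480 control, and 4282 and 4269 FPKM in HCT116 curcumin, against 4207 and 4482 FPKM in HCT116 control. MT-ND2 stood at 6308 and 7052 FPKM in SW480 curcumin, against 4678 and 6095 FPKM in SW480 control, and at 3863 and 3888 FPKM in HCT116 curcumin, against 3846 and 4257 FPKM in HCT116 control. The groups were separate in SW480 and overlapped in HCT116. Its log2 fold change was 0.32 in SW480, with an unadjusted p of 0.122 and an adjusted p of 0.566 (limma), and -0.06 in HCT116. Without SW480 control replicate 1 the SW480 value was 0.13. MT-ND3 overlapped between the groups in both lines, with 5907 and 5195 FPKM in SW480 curcumin, against 4853 and 5486 FPKM in SW480 control, and 5061 and 5541 FPKM in HCT116 curcumin, against 5546 and 4793 FPKM in HCT116 control. MT-ND4 had 14997 and 15298 FPKM in SW480 curcumin, against 11058 and 14555 FPKM in SW480 control. In HCT116 curcumin it had 13978 and 13716 FPKM, against 14235 and 15582 FPKM in HCT116 control.

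MT-ND6 is the only message coded on the light strand, and whether fragments were counted by strand is not given in the sources used here, so its reads cannot be told apart from those of a heavy-strand precursor across the same bases. It had 3539 and 3354 FPKM in SW480 curcumin, against 2831 and 3552 FPKM in SW480 control, and 4760 and 4511 FPKM in HCT116 curcumin, against 4586 and 4721 FPKM in HCT116 control. Its neighbour MT-ND5 had 3290 and 3431 FPKM in SW480 curcumin, against 2986 and 3566 FPKM in SW480 control, and 4639 and 4436 FPKM in HCT116 curcumin, against 4838 and 4845 FPKM in HCT116 control. Over the 8 libraries MT-ND6 spanned 2831 to 4760 FPKM and MT-ND5 2986 to 4845 FPKM.

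Cytochrome c oxidase is built around MT-CO1, MT-CO2 and MT-CO3. MT-CO1, which carries the site of oxygen reduction, had 7383 and 8445 FPKM in SW480 curcumin, against 6128 and 7562 FPKM in SW480 control, and 7814 and 8010 FPKM in HCT116 curcumin, against 8184 and 8752 FPKM in HCT116 control. The SW480 groups overlapped, and in HCT116 the curcumin libraries were the lower ones. MT-CO3 had 11739.5 and 11811 FPKM in SW480 curcumin, against 9847 and 11985 FPKM in SW480 control, and 14878 and 14861 FPKM in HCT116 curcumin, against 15806 and 17298 FPKM in HCT116 control. It overlapped in SW480 and was lower with curcumin in HCT116. Log2 fold changes were 0.21 for MT-CO1, 0.26 for MT-CO2 and 0.12 for MT-CO3 in SW480, and -0.10, -0.03 and -0.15 in HCT116, none with an adjusted p under 0.05. MT-CO2 in HCT116 became 0.0017 when libraries were scaled to one median.

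MT-CYB, the mitochondrially encoded subunit of complex III, had 7506 and 7596 FPKM in SW480 curcumin, against 6384 and 8124 FPKM in SW480 control, which enclosed them. In HCT116 curcumin it had 6620 and 6721 FPKM, against 7635 and 8276 FPKM in HCT116 control. Its log2 fold change of -0.25 in HCT116 (adjusted p = 0.671) was the lowest of the messages in that line, beside 0.07 in SW480.

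The complex V messages MT-ATP8 and MT-ATP6 are read from 1 shared transcript in human mitochondria. MT-ATP6 had 9573 and 9782 FPKM in SW480 curcumin, against 7132 and 8881 FPKM in SW480 control, and 9895 and 9191 FPKM in HCT116 curcumin, against 10180 and 10872 FPKM in HCT116 control. It was higher in both SW480 curcumin libraries and lower in both HCT116 curcumin libraries, with log2 fold changes of 0.28 and -0.14. MT-ATP8 had 6200 and 2825 FPKM in SW480 curcumin, against 6078 and 5911 FPKM in SW480 control, and 5953 and 5704 FPKM in HCT116 curcumin, against 8379 and 3650 FPKM in HCT116 control. The low values came from single libraries, SW480 curcumin replicate 2 and HCT116 control replicate 2, and the replicates of a group differed by up to 2.30-fold.

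The ratio of MT-ATP8 to MT-ATP6 FPKM was 0.289 in SW480 curcumin replicate 2 and 0.336 in HCT116 control replicate 2, and between 0.602 and 0.852 in the other libraries. MT-ND4L, another short message, overlaps MT-ND4 by 7 bases and had its lowest ratio to MT-ND4 in the same libraries, 0.306 and 0.347, beside 0.384 to 0.471 elsewhere. The lowest ratios of these short messages, with gene lengths of 207 and 297 bases, thus fell in a curcumin library and a control library. Replicates differed by up to 2.30-fold for MT-ATP8, but only by up to 1.24-fold for MT-ND4L and 1.32-fold for MT-ND4. Without SW480 curcumin replicate 2 the log2 fold change of MT-ATP8 in SW480 was 0.05, against -0.52 with it. Without HCT116 control replicate 2 it was -0.52 in HCT116, against 0.08 with it.

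MT-RNR2, the RNA of the large mitochondrial ribosomal subunit, had 16565 and 17248 FPKM in SW480 curcumin, against 14372 and 14223 FPKM in SW480 control, and 18143 and 21341 FPKM in HCT116 curcumin, against 17997 and 16519 FPKM in HCT116 control. It was the only one of the 32 genes with both curcumin libraries above both controls in each line, a pattern shown by 5.98% of all genes tested. The log2 fold changes of 0.24 and 0.19 had adjusted p-values of 0.761 and 0.822 (limma). MT-RNR1, the RNA of the small subunit, had 6595 and 5963 FPKM in SW480 curcumin, against 8090 and 4900.5 FPKM in SW480 control, and 5794 and 12186 FPKM in HCT116 curcumin, against 8579 and 6726 FPKM in HCT116 control. Its replicates differed by up to 2.10-fold, and its log2 fold changes were -0.01 in SW480 (0.030 with libraries scaled to one median) and 0.15 in HCT116. The ratio of MT-RNR2 to MT-RNR1 varied between 1.75 and 3.13 over the 8 libraries. Apart from MT-ATP8 and MT-RNR1, no message or ribosomal RNA differed by more than 1.32-fold between replicates.

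**Figure D2:**
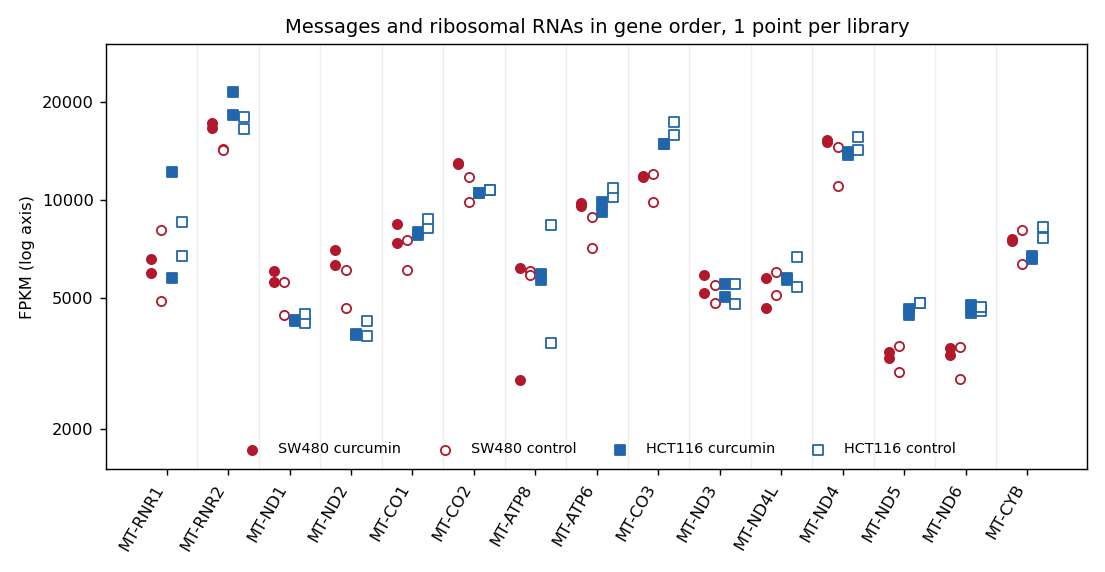
FPKM (y axis, log scale) of the messages and ribosomal RNAs in gene order, 1 point per library; filled points are curcumin and open points control, circles SW480 and squares HCT116. MT-RNR1 and MT-ATP8 spread most between replicates, and MT-RNR2 has both curcumin points above both control points in each line.

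In both lines the log2 fold changes farthest from 0 in either direction were those of transfer RNAs, with a median log2 fold change of -0.29 in SW480 and -0.26 in HCT116 over the 17 tested. Under the other scalings the medians were -0.26 and -0.29 in SW480 and -0.23 and -0.30 in HCT116. Passing the filter on low values took 1 FPKM, and the remaining 5, MT-TQ, MT-TA, MT-TN, MT-TS1 and MT-TK, were listed at 0 in all 8 libraries. MT-TW, for tryptophan, was barely detected, with at most 5 reads in a library. Transfer RNAs are short, folded and modified, so such values are a partial view of them. Their genes span 59 to 75 bases, shorter than the sequenced reads that the paper states. Reads of uncut precursors therefore cannot be told apart from those of transfer RNAs already cut out.

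MT-TP, the proline transfer RNA coded on the light strand at bases 15956 to 16023 of the mitochondrial chromosome, had 269 and 248 FPKM in SW480 curcumin (172 and 390 reads), against 361 and 352 FPKM in SW480 control (385 and 520 reads). In HCT116 curcumin it had 124 and 141 FPKM (182 and 99 reads), against 177 and 166 FPKM in HCT116 control (250 and 200 reads). As for MT-ND6 and the other light-strand genes, reads of MT-TP cannot be told apart from those of a heavy-strand precursor across the same bases. The curcumin libraries were below the controls in both lines, without overlap. Its log2 fold change was -0.46 ± 0.09 in SW480 and -0.37 ± 0.09 in HCT116 (SE), with adjusted p-values of 0.112 and 0.186. Averaged over both lines it fell by 0.42 ± 0.06 (adjusted p = 0.0487, limma), the only one of the 32 to pass, against 0.777% of all genes, 0.398% being lower. Leaving out any 1 of the 8 libraries ended this call, and its adjusted p was between 0.0119 and 0.256 over all alternatives tried.

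MT-TG, for glycine, lies between MT-CO3 and MT-ND3. It had 50.1 and 53.5 FPKM in SW480 curcumin (32 and 84 reads), against 99.5 and 101 FPKM in SW480 control (106 and 149 reads), so the replicates were close and the curcumin level was about 1 log2 unit lower. In HCT116 curcumin it had 142 and 118 FPKM (209 and 83 reads), against 191 and 138 FPKM in HCT116 control (270 and 167 reads), and these groups overlapped. The log2 fold change was -0.94 ± 0.16 in SW480 (adjusted p = 0.0934) and -0.33 ± 0.16 in HCT116 (adjusted p = 0.493). The difference between the lines was -0.61 ± 0.23 (unadjusted p = 0.0329, adjusted p = 0.548), and MT-TG was the only one of the 32 past the study's threshold in this comparison, against 2.59% of all genes. That count was 0 with libraries scaled to one sum outside mitochondrial DNA, with no filter, and without SW480 curcumin replicate 1, SW480 curcumin replicate 2 or SW480 control replicate 1. With the filter raised to 10 FPKM, MT-TG and MT-TP both passed the adjusted threshold in SW480.

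MT-TT, the threonine transfer RNA next to MT-TP, had 32.2 and 32.1 FPKM in SW480 curcumin (20 and 49 reads), against 59.0 and 57.9 FPKM in SW480 control (61 and 83 reads). It had 16.1 and 30.7 FPKM in HCT116 curcumin (23 and 21 reads), against 37.9 and 29.0 FPKM in HCT116 control (52 and 34 reads). The groups were separate in SW480 only. Its log2 fold changes were -0.84 ± 0.27 in SW480 and -0.55 ± 0.27 in HCT116, neither with an adjusted p under 0.05 (0.287 and 0.4996). MT-TS2, one of 2 serine transfer RNAs, had 93.8 and 76.3 FPKM in SW480 curcumin, against 116 and 168 FPKM in SW480 control, and 112 and 113 FPKM in HCT116 curcumin, against 127 and 196 FPKM in HCT116 control. No overlap was seen in either line, and the log2 fold changes were -0.71 ± 0.25 and -0.48 ± 0.25 (adjusted p = 0.313 and 0.512).

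MT-TI, for isoleucine, directly follows MT-ND1. Its level was 80.2 and 108 FPKM in SW480 curcumin, against 130 and 110 FPKM in SW480 control, and 102 and 136 FPKM in HCT116 curcumin, against 208 and 157 FPKM in HCT116 control. It was lower with curcumin in both lines without overlap, with log2 fold changes of -0.36 ± 0.22 and -0.61 ± 0.22 (adjusted p = 0.599 and 0.345). MT-TI, MT-TS2 and MT-TP were the 3 of 32 genes with both curcumin libraries below both controls in each line, as were 7.64% of all genes tested. Averaged over the lines, 5 of 17 transfer RNAs (MT-TI, MT-TG, MT-TS2, MT-TT and MT-TP) were lower at an unadjusted p under 0.05, and 8.59% of all genes were.

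**Figure D3:**
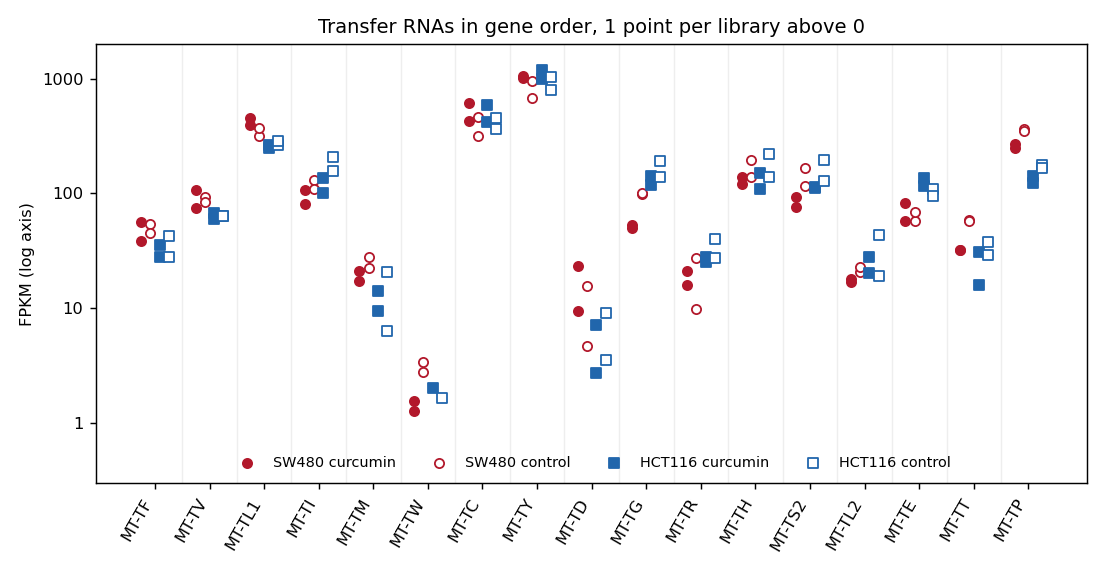
FPKM (y axis, log scale) of the 17 transfer RNAs above 0, in gene order, 1 point per library; libraries at 0 are not drawn, which leaves out 2 points of MT-TW. MT-TG, MT-TT and MT-TP are among 8 with both SW480 curcumin points below both SW480 control points, as were 27.8% of all genes tested. MT-TY is the highest transfer RNA in every library.

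Other transfer RNAs had log2 fold changes above 0. MT-TC and MT-TY, for cysteine and tyrosine, are light-strand neighbours that overlap by 1 base. MT-TY had 1049 and 1018 FPKM in SW480 curcumin, against 676 and 944 FPKM in SW480 control, and 1197 and 998 FPKM in HCT116 curcumin, against 794 and 1040 FPKM in HCT116 control. Its log2 fold changes were 0.37 and 0.27 and those of MT-TC were 0.42 and 0.29, none with an adjusted p under 0.05. MT-TL1, the leucine transfer RNA between MT-RNR2 and MT-ND1, had 452 and 392 FPKM in SW480 curcumin, against 318 and 370 FPKM in SW480 control, and 248 and 265 FPKM in HCT116 curcumin, against 262 and 288 FPKM in HCT116 control. The log2 fold change was 0.29 ± 0.11 in SW480 (unadjusted p = 0.0378, adjusted p = 0.365) and -0.10 ± 0.11 in HCT116, and the difference of 0.39 between the lines had an adjusted p of 0.600.

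The remaining 8 transfer RNAs apart from MT-TW (MT-TF, MT-TV, MT-TM, MT-TD, MT-TR, MT-TH, MT-TL2 and MT-TE) had log2 fold changes of -0.38 to 0.73 in SW480 and -0.46 to 0.30 in HCT116, none with an unadjusted p under 0.05. MT-TH, MT-TS2 and MT-TL2 lie in a row after MT-ND4. MT-TH, for histidine, had 139 and 121 FPKM in SW480 curcumin, against 138 and 194 FPKM in SW480 control, and 109 and 150 FPKM in HCT116 curcumin, against 140 and 222 FPKM in HCT116 control. MT-TH had log2 fold changes of -0.33 and -0.46 and MT-TL2 of -0.29 and -0.26, below 0 in both lines as for MT-TS2, and their groups overlapped in HCT116. MT-TE, the glutamate transfer RNA of the light strand, had 137 and 116 FPKM in HCT116 curcumin, against 109 and 95.4 FPKM in HCT116 control, and was the only transfer RNA higher with curcumin without overlap in that line.

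**Figure D4:**
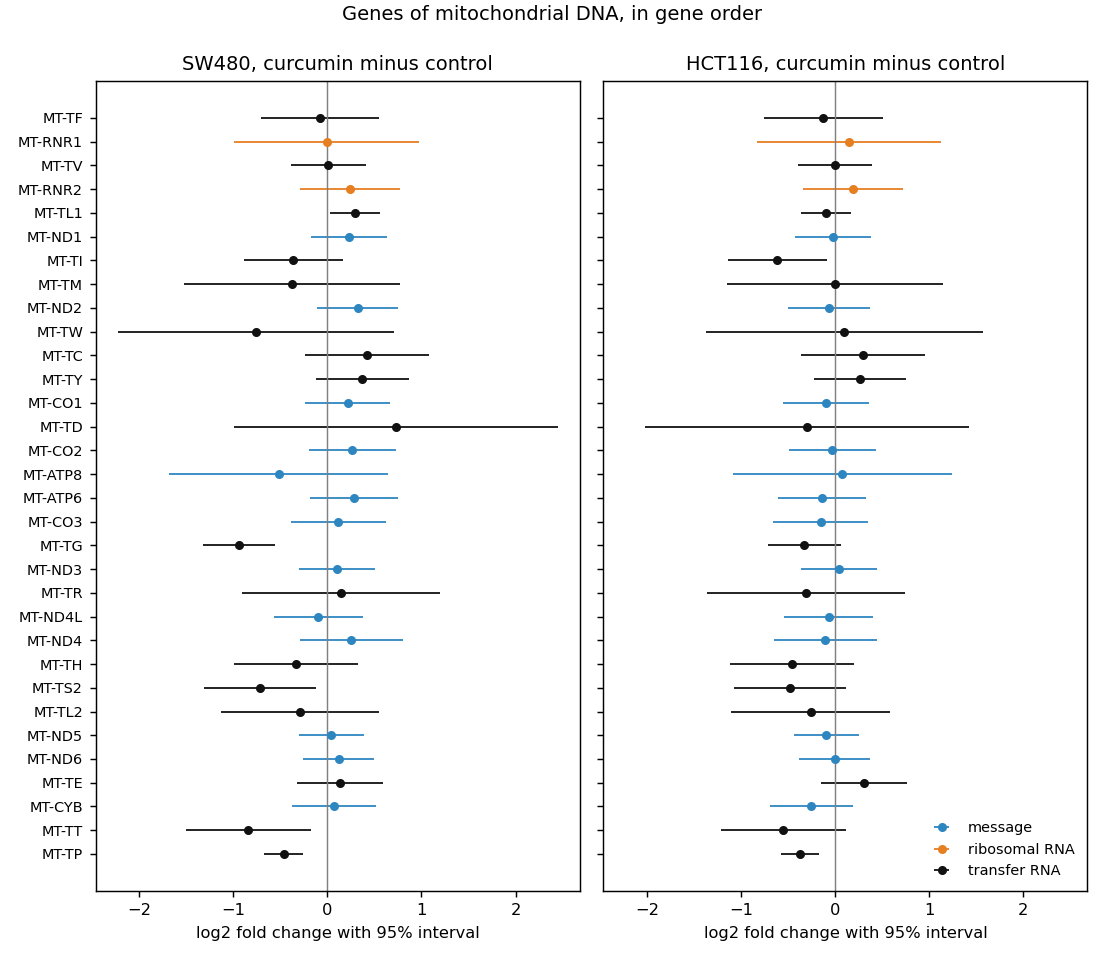
Log2 fold change of curcumin minus control (x axis) with its 95% interval from limma for the 32 genes tested, in gene order from top to bottom, SW480 on the left and HCT116 on the right. Every message and ribosomal RNA interval includes 0, and the intervals that do not are those of transfer RNAs.

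Counted by overlap alone, 16 of the 32 genes had separate groups in SW480, 8 with curcumin above and 8 below, and 46.3% of all genes tested were separate in that line, 18.5% above and 27.8% below. All 8 of the lower ones were transfer RNAs. In HCT116, 12 of 32 were separate, 2 above and 10 below, against 37.4% of all genes, 18.3% above and 19.1% below. Of those 10, 7 were messages, whereas no message was below without overlap in SW480.

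Between the lines, more of the 32 genes passed the test than between curcumin and control. Between SW480 control and HCT116 control, 9 of the 32 genes passed an adjusted p of 0.05, 4 higher and 5 lower in SW480, against 62.7% of all genes tested, 33% higher and 29.7% lower. By the study's threshold 8 differed, against 46% of all genes. Both counts of the 32 were below the shares over all genes. MT-TP was the clearest, at 361 and 352 FPKM in SW480 control against 177 and 166 FPKM in HCT116 control (log2 difference 1.05 ± 0.09, adjusted p = 7.5e-05, limma). MT-TT, MT-TV and MT-TL1 were higher in SW480 control too, by 0.80, 0.46 and 0.32 on the log2 scale. Lower in SW480 control were MT-CO3 (-0.61), MT-ND5 (-0.57), MT-ND6 (-0.55), MT-TG (-0.69) and MT-TE (-0.68). Without SW480 control replicate 1, 4 of the 32 passed either threshold.

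In proportion to the other messages, MT-CO3 took 11.6% to 12.1% of the summed message FPKM in the 4 SW480 libraries and 15.1% to 16.7% in the 4 HCT116 libraries. MT-ND2 took 5.75% to 7.17% in SW480 and 3.67% to 4.11% in HCT116. MT-ND1 and MT-CO2 also took larger parts in SW480, at 5.45% to 6.18% and 11.8% to 13.1%, against 4.01% to 4.399% and 10.3% to 10.8% in HCT116. MT-ND5 and MT-ND6 took smaller parts in SW480, at 3.26% to 3.67% and 3.41% to 3.58%, against 4.57% to 4.73% and 4.37% to 4.86% in HCT116. In these 6 messages the ranges of the lines did not overlap, whichever the treatment. As parts of the same pool, such shares are not independent of each other. In FPKM, which is not relative to the other messages, MT-ND2, MT-CO3, MT-ND5 and MT-ND6 kept the 4 libraries of each line apart, as 65.5% of all genes did.

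**Figure D5:**
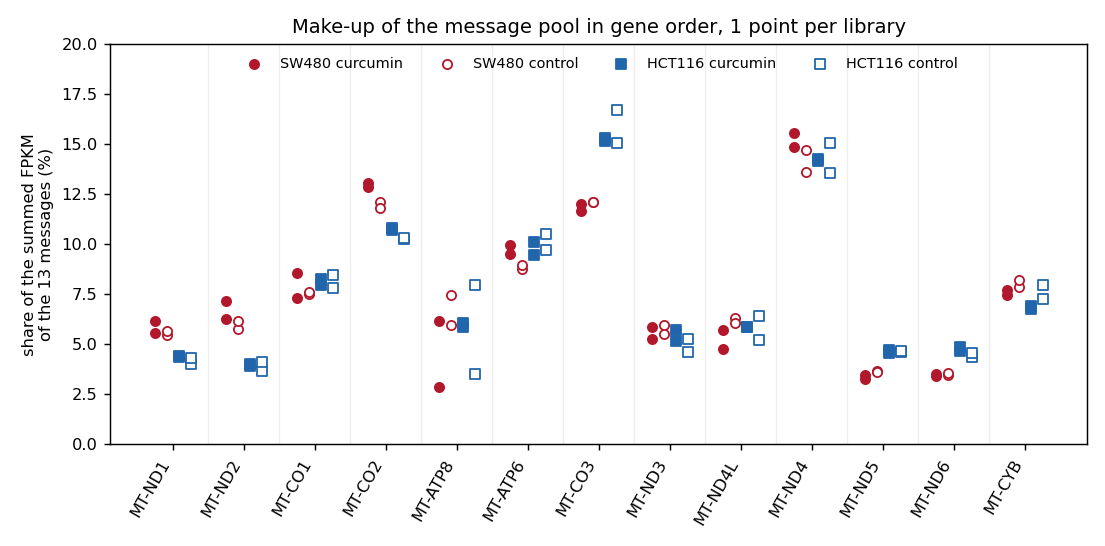
Share of the summed FPKM of the 13 messages held by each message (y axis, %), in gene order, 1 point per library; filled points are curcumin and open points control. MT-ND1, MT-ND2 and MT-CO2 lie higher in SW480 (circles) and MT-CO3, MT-ND5 and MT-ND6 higher in HCT116 (squares), with no overlap of the lines.

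The order of the messages differed between the lines. MT-ND4 took 13.6% to 15.5% of the summed message FPKM in SW480 and 13.6% to 15.03% in HCT116, so that it stood above MT-CO3 in all 4 SW480 libraries and below it in all 4 HCT116 libraries. At the low end, MT-ND5 or MT-ND6 was the lowest message in 3 of 4 SW480 libraries and MT-ND2 in 3 of 4 HCT116 libraries. In the other library of each line, SW480 curcumin replicate 2 and HCT116 control replicate 2, MT-ATP8 was the lowest, at 2.87% and 3.52%. Within a library the highest message exceeded the lowest by 3.82-fold to 5.42-fold.

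Nuclear pseudogenes that copy mitochondrial genes can take reads from them. The table holds 415 rows named as such copies, of which 37 reached 1 FPKM in at least 2 libraries, and together they held 0.461% to 0.569% of the summed FPKM. The highest, MTATP6P1, a copy of MT-ATP6, had 760 and 722 FPKM in SW480 curcumin, against 593 and 718 FPKM in SW480 control, and 871 and 757 FPKM in HCT116 curcumin, against 839 and 895 FPKM in HCT116 control. MTND2P28, a copy of MT-ND2, had 413 and 461 FPKM in SW480 curcumin, against 376 and 454 FPKM in SW480 control, and 272 and 261 FPKM in HCT116 curcumin, against 316 and 343 FPKM in HCT116 control, and was higher in SW480, as MT-ND2 was. How reads that match both a gene and its copy were divided is not given in the sources used here, so both levels are uncertain by that amount.

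Nuclear-encoded partners were at far lower levels. The 37 nuclear complex I genes summed to 784 to 917 FPKM in the curcumin libraries and 768 to 892 FPKM in the control libraries, against 42065 to 45437 FPKM and 35968 to 44900 FPKM for the 7 mitochondrial ones. Of the nuclear subunits tested, 33 of complex I, 4 of complex II, 9 of complex III, 12 of complex IV and 15 of complex V, 0 passed an adjusted p of 0.05 in SW480, in HCT116 or in the mean of both lines (limma), against 0.306%, 0.171% and 0.777% of all genes tested. In each of these comparisons 2 had an unadjusted p under 0.05, against 12.2%, 11.8% and 15.6% of all genes. Their median log2 fold changes were between -0.01 and 0.04 in SW480 and between 0.04 and 0.15 in HCT116. COX5A, a subunit of complex IV, had 0.01 in SW480 and 0.27 in HCT116 (adjusted p = 0.992 and 0.315).

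Genes that act on mitochondrial RNA and DNA were tested as well. Of the 9 transcription genes, 5 genes for cutting out transfer RNAs, 14 genes of RNA stability and decay and 12 of mitochondrial DNA replication, 0 passed in either line or in the mean, with unadjusted p-values under 0.05 for 4 in SW480, 2 in HCT116 and 4 in the mean (limma), beside the same shares of all genes. TFB2M, which helps the mitochondrial RNA polymerase open a promoter, had -0.09 in SW480 and -0.25 in HCT116 (adjusted p = 0.696 and 0.263), and HSD17B10, a subunit of the mitochondrial RNase P that cuts transfer RNAs at one end, had 0.01 and 0.18 (adjusted p = 0.996 and 0.557). SUPV3L1, a helicase of mitochondrial RNA decay, had 0.20 and 0.06 (adjusted p = 0.217 and 0.752).

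Averaged over both lines, 1 of 43 genes of the large subunit of the mitochondrial ribosome rose, MRPL21 by 0.25 ± 0.04 (adjusted p = 0.0494), with 0 falling, and 0 of 26 genes of the small subunit passed, 4 of them having an unadjusted p under 0.05. Of 12 genes for mitochondrial chaperones and proteases, 1 rose, HSPA9, the mitochondrial Hsp70, by 0.30 ± 0.04 (adjusted p = 0.0351). In this comparison 0.777% of all genes passed. Leaving out any 1 of the 8 libraries, adding the replicate block, scaling libraries to one median or fitting without the trend ended both calls, with adjusted p-values of up to 0.274 for MRPL21 and 0.232 for HSPA9. Among 8 regulators of mitochondrial biogenesis 0 passed in the mean (limma), 3 having an unadjusted p under 0.05, and MYC had 0.16 in SW480 and -0.33 in HCT116 (adjusted p = 0.507 and 0.203).

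The same 37 rows are present in the andrographis table, which was made from 8 other libraries of these lines and was not tested against the curcumin table. There they held 0.0395% to 0.0853% of the summed FPKM, and 17 of the 22 transfer RNAs were at 0 in all 8 libraries. Messages lay between 0 and 5.60 FPKM and the ribosomal RNAs between 26.4 and 77.8 FPKM. What set the tables apart was not tested, and the levels given above hold for the curcumin libraries only.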

How the data were processed

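TruSeq libraries were prepared from total RNA, and their fragments were read from both ends. The paper names no step that selected or removed a class of RNA, and refers to earlier reports for details. How far the levels of messages, ribosomal RNAs and transfer RNAs depend on such a step was not tested. The deposited log2 values were made by the authors; STAR 2.7.8a, Partek 10.0.22.0121 and DESeq2 stand in the submitters' processing notes, with GRCh38 and mm10 as builds. The table states no unit. It was read as log2(FPKM + 1), from 1835 microRNA values above 0 over the 8 libraries. With base 2 the low ones gave whole reads in 98.1% to 99.1% of cases a library (within 0.05 of a read, up to 12 reads). Each base was given its best depth, and the share was 51.9% to 66.7% with base e and 21.6% to 35.0% with base 10. All 134 transfer RNA values above 0 were whole reads within 0.1. The depths had been refined on these same values, so this is no separate check of them. Depth limits the transfer RNAs most.

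The members and gene lists were chosen with earlier results of these data known. All 37 members were described; other genes were named as up to 4 a list past an adjusted p of 0.05, or else the one with the smallest p, of which some are printed, and the 2 highest nuclear copies. limma 3.58.1 in R 4.3.3 (trend, 4 group means over 8 libraries, 4 residual degrees of freedom, pseudocount 1, Benjamini-Hochberg over 16341 genes) was the main test. It was tested on simulated data. Shares were compared with exact permutation tests. Alternatives were scaling, filter, pseudocount, variance prior, replicate block, fewer libraries and leaving out each library. Strand of counting was not given in the sources used here.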

Additional observations from a re-analysis of the deposited data

How the results depend on the processing

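Transfer RNA values rested on few reads. The counts of genes called, out of 32, changed as follows. At an adjusted p under 0.05, the SW480 count was 2 with the filter at 10 FPKM, against 0. The count for the mean of both lines was 0 with scaling to one median, with no filter, with a pseudocount of 0.1, without the trend and with the replicate block, and 2 with the filter at 10 FPKM, against 1, and 0 when any 1 library was left out. The SW480 control minus HCT116 control count was 1 with no filter and 4 to 8 when a library was left out, against 9. At an unadjusted p under 0.05 with a log2 fold change beyond 0.5, leaving out a library gave 1 to 4 in SW480 (main 3; 1 without SW480 curcumin replicate 2), 0 to 4 in HCT116, 2 to 5 in the mean, 0 to 2 for the difference between lines and 4 to 9 between controls. The HCT116 count of 1 was 0 with no filter, with the replicate block and with only the 4 libraries of the line. The difference between lines was 0, against 1, with scaling to one sum outside mitochondrial DNA and with no filter. Between controls it was 3 with no filter, against 8. The cause was not tested.

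The labels do not say whether libraries with the same replicate number were prepared together. Their deviations correlated at 0.0348 in SW480 and 0.197 in HCT116, which cannot settle this. With the replicate block 0 members passed in the mean of both lines.

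Directions turned round for MT-RNR1 in SW480 (0.030 with scaling to one median) and MT-CO2 in HCT116 (0.0017 with the same scaling). Leaving out a library gave log2 fold changes of -0.37 to 0.36 for MT-RNR1, -1.08 to 0.049 for MT-ATP8, -0.026 to 0.26 for MT-CO3 and -0.11 to 0.24 for MT-CYB in SW480. In HCT116 it gave -0.39 to 0.68 for MT-RNR1, -0.14 to 0.011 for MT-ND2 and -0.52 to 0.67 for MT-ATP8. The share of mitochondrial RNA over both lines was -0.225 percentage points without the ribosomal RNAs and -0.272 to 1.38 when a library was left out, against 0.556. Within SW480 leaving out a library gave 0.785 to 4.10, and within HCT116 -1.99 to -0.666. As a share of reads the HCT116 difference was -0.168, against -1.33, and the groups overlapped.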
